A study of Mus musculus with 8 samples.

Results

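The transcripts described here are 139 mouse gene models that carry only a serial name, of the form Gm with a number or ending in Rik, and that were high in embryonic stem cells depleted of Chaf1a and low again when mDux was depleted with it. They were picked from 9193 such models in a table of 28431 genes by their level in CPM, the read count scaled to the total count of its library. Both libraries with Chaf1a siRNA had to hold at least 1 CPM, and their mean had to reach 8 times the negative control mean plus 0.05 CPM. The mean with each of the mDux siRNA pools could be at most 25% of the mean with Chaf1a siRNA alone. Of the 9193 models, 1569 passed the CPM minimum, 166 of these passed the fold over the negative control, and 139 of the 166 were low with both pools. The 3 models of the mDux array itself were set aside. Of the 139 names, 124 are Gm numbers and 15 end in Rik.

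PolyA RNA was sequenced from a mouse embryonic stem cell culture holding a GFP reporter under the MERVL retroviral promoter and grown with serum, LIF and the 2 inhibitors of 2i medium. All 8 libraries came from these reporter cells, transfected on consecutive days with the same total amount of siRNA. The groups were Chaf1a siRNA with the diced pool si309 against mDux (labelled siChaf1a_si309), Chaf1a siRNA with the diced pool si308 against another stretch of mDux (siChaf1a_si308), Chaf1a siRNA with negative control siRNA (siChaf1a), and negative control siRNA alone (NC). The negative control group received 20 pmol and the other groups 10 pmol of each siRNA, with 2 libraries a group; the label of 1 si309 library gives no dose. Both pools were given only together with Chaf1a siRNA, so their effect without it was not measured.

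CHAF1A is the large subunit of the chromatin assembly factor CAF-1, which places histones on newly copied DNA. A small share of mouse embryonic stem cells passes through a state resembling the embryo just after its first division, and loss of CAF-1 is known to raise that share. DUX, the product of mDux, is a double homeobox transcription factor that turns on genes and MERVL elements of this state. Many of those genes sit in rodent-specific, repeatedly copied families, which is why annotation leaves many of them with serial names. In bulk RNA, fewer cells in that state and less RNA per cell cannot be told apart.

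Library totals lay between 26042851 and 42375685 counts. Chaf1a stood at 34.9 and 30.3 CPM with si309, 36.3 and 34.7 CPM with si308, 29.4 and 31.4 CPM with Chaf1a siRNA alone, and 127 and 129 CPM in the negative control, so the Chaf1a depletion was similar in all 3 treated groups. The mDux model 4933403O03Rik had 0.165 and 0.236 CPM with si309, 0.033 and 0.0944 CPM with si308, 7.54 and 7.41 CPM with Chaf1a siRNA alone, and 0 and 0.0558 CPM in the negative control. With the pools these were only 5 and 9 counts (si309) and 1 and 4 counts (si308), too few to measure a difference between the pools in mDux. All 12 embryonic stem cell markers listed were present, with summed levels of 5141 to 5168 CPM with si309, 5347 to 5594 CPM with si308, 5114 to 5187 CPM with Chaf1a siRNA alone, and 6789 to 6816 CPM in the negative control. All 8 primitive endoderm markers had counts, and their sum was 291 to 308.6 CPM with si309, 265 to 282 CPM with si308, 334 to 353 CPM with Chaf1a siRNA alone and 143 to 171 CPM in the negative control. All 8 fibroblast markers likewise had counts, with sums of 59.5 to 59.9 CPM, 53.2 to 55.2 CPM, 65.0 to 65.7 CPM and 8.41 to 9.32 CPM in the same order of groups. Sums also differed between groups for trophectoderm markers (106 CPM in both si309 libraries, 92.4 to 98.6 CPM with si308, 86.3 to 87.2 CPM with Chaf1a siRNA alone, 73.1 to 73.5 CPM in the negative control) and neural markers (112 to 114 CPM, 111 to 125 CPM, 113 to 117 CPM and 73.5 to 78.4 CPM in the same order of groups). Mesoderm markers summed to 7.57 to 9.32 CPM with si309, 6.73 to 8.48 CPM with si308, 11.5 to 11.9 CPM with Chaf1a siRNA alone and 3.35 to 4.08 CPM in the negative control, and the 4 blood markers in the table to at most 3.496 CPM in any library. The part of these other cell types in the members' levels was not tested.

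Some members share stretches of sequence although they lie on different chromosomes, and these stretches stand first because they connect models whose names say nothing. A leader of 110 bases, read from the long non-coding transcript of Gm12114 on chromosome 11, opens the transcripts of 15 of the 124 members with a transcript in GENCODE M21. In each of the 15 it begins within the first 14 bases of the transcript. The 15 lie on 9 chromosomes and include protein-coding models, long non-coding and antisense models and a pseudogene. The leader was defined as the stretch that the transcripts of Gm12114 and Gm12724, both members, share (98.2% identity over 110 bases). Among 2659 other unnamed models that were tested, 9 (0.338%) held the leader at the same limits of 80% identity over 80 bases, against 12.1% of the members. Since the leader was taken from members, its share among them was in part fixed in advance. Among the members, a related block of 121 bases is itself annotated 3 times as a separate model of the microRNA class, in identical copies. These are Gm22112 (chr1:82396697-82396817, minus strand), Gm25774 (chr7:103415806-103415926, plus strand) and Gm25208 (chr14:42274419-42274539, minus strand). At 99% identity or more over at least 100 bases, each copy matched transcripts of 38 other genes, of which 2 were members. The last 73 bases of the block are the first 73 of the leader, so that the block adds 48 bases upstream of it.
Leader of Gm12114, transcript bases 5 to 114, GRCm38, plus strand of chromosome 11: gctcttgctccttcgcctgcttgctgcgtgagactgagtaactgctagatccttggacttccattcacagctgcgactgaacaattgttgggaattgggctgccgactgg
Block of Gm22112, Gm25774 and Gm25208, GRCm38: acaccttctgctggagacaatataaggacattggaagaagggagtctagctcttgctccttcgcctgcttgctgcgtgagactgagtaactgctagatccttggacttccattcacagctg

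In promoter windows taken from RefSeq (GRCm38.p6), from 250 bases before to 50 bases after the annotated start, the block was found in 5 of 43 members with a window (11.6%), against 27 of 27025 genes (0.0999%). In those 5 it began 46 to 50 bases before the start, at position -50 in Gm4340, -48 in Gm21947, -47 in B020004J07Rik and -46 in Gm8994 and Gm12724. The block therefore spans the point at which these transcripts begin. The motif GATTNAATC, which lies within the site described for mouse DUX, was searched on both strands and occurred in 7 of the 43 members' windows (16.3%), against 83 of the 27025 genes (0.307%). The looser motif GATTNNATC, which includes the first, occurred in the same number of members, 7, and in 495 of all genes (1.83%). Of the 7 windows, 6 belonged to members with the leader, which were all the members with both a leader and a window. In Gm21761, 1 of the 6, the RefSeq start lies inside the GENCODE gene and not at its leader. The windows of the other 5 aligned with each other at 73.6% to 92.6% identity over at least 297 bases. Their motifs are therefore not 5 independent finds.

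The 4 windows printed here show this arrangement and 1 exception to it. Gm4340 encodes a relative of the RNA export adaptor ALYREF, B020004J07Rik is the PRAME family gene Pramel17 in RefSeq, and Gm8994 is Eif4a3l1 in RefSeq, a relative of the RNA helicase gene Eif4a3. Their windows were 80.7% to 87.9% identical to each other over at least 297 aligned bases, although beyond the shared leader the genes they begin belong to different families. Gm13119 (Pramel31 in RefSeq) holds the motif without the leader. The motif stands in capitals in each window. It begins at position -146 in Gm4340, -123 in B020004J07Rik, -116 in Gm8994 and -136 in Gm13119, counted from the start. A match is a description of the letters and does not show that DUX binds there.
Gm4340, chr10:104193792-104194091, plus strand: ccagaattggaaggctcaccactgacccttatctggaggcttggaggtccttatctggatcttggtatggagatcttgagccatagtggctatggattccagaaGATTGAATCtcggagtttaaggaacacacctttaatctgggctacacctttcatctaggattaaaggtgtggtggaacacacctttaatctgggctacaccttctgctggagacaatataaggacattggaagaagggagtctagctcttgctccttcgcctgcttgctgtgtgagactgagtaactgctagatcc
B020004J07Rik, chr4:101843973-101844272, minus strand: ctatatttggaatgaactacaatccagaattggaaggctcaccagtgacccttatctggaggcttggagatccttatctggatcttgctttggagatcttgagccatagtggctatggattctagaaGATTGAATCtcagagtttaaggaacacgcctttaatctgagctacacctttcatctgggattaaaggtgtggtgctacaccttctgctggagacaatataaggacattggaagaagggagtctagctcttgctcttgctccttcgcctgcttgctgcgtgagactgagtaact
Gm8994, chr6:136327289-136327588, plus strand: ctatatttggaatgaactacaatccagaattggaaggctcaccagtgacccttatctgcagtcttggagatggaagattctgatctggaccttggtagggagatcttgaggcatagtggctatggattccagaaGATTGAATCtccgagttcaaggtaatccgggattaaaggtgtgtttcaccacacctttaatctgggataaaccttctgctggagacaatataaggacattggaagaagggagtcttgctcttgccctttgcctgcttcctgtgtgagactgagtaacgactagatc
Gm13119, chr4:144357714-144358013, plus strand: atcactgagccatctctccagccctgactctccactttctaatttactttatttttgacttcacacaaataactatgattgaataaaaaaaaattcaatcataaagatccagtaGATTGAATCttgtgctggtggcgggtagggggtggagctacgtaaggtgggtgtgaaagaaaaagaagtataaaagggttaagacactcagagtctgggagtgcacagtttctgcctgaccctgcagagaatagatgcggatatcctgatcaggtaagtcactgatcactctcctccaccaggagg

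The rule required every member to be high with Chaf1a siRNA alone and low in the other groups. Gm8994 and Gm4340, whose windows are printed above, had this course at different levels. Gm8994 had 1.78 and 1.60 CPM with si309, 0.0989 and 0.212 CPM with si308, 51.9 and 58.0 CPM with Chaf1a siRNA alone, and 0.143 and 0.0279 CPM in the negative control. Gm4340 had 0.132 and 0.550 CPM with si309, 0 and 0.0236 CPM with si308, 18.4 and 22.5 CPM with Chaf1a siRNA alone, and 0.0716 and 0.0279 CPM in the negative control. Both libraries with Chaf1a siRNA alone stood above all others for each, and both si309 libraries stood above both si308 libraries. The 15 members with the leader kept a median of 2.48% of their Chaf1a siRNA level with si309 (0.876% to 6.13%) and 0.105% with si308 (0 to 8.64%), against medians of 2.57% and 0.190% over the other 109 members with a transcript. The 3 copies of the block summed to few counts. Gm22112 had 3 and 1 counts with si309, 0 and 0 with si308, 64 and 47 with Chaf1a siRNA alone, and 0 and 1 in the negative control. Since the copies are identical, reads cannot tell them apart, and reads from near-identical stretches of other genes may also be assigned to them.

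**Figure D1:**
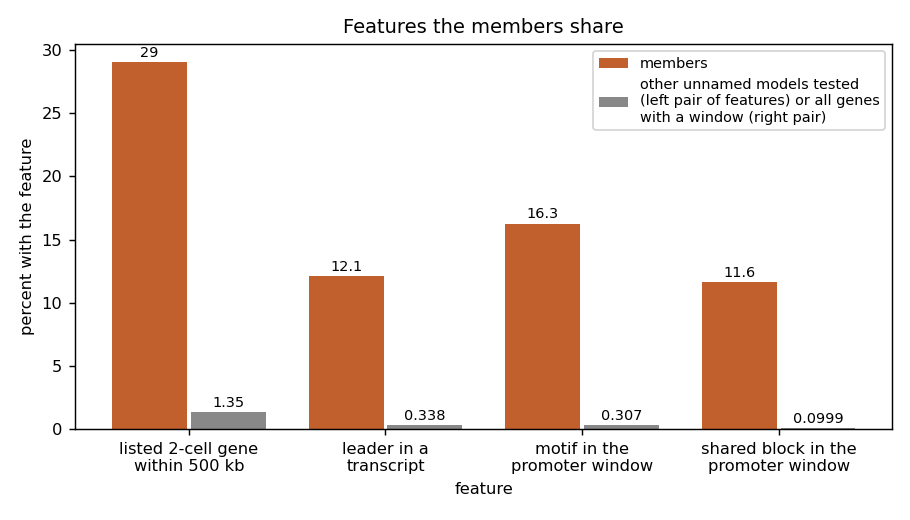
Percent of members and of the comparison set with each of 4 features. The leader and the block were themselves taken from transcripts of members. The 2-cell list names families to which members belong, and most of the members' windows with the motif resemble each other. A listed 2-cell gene lay within 500 kb of 29.0% of 124 members against 1.35% of 2659 other unnamed models tested, the leader was in 12.1% against 0.338% of the same sets, and the motif and the 121-base block were in 16.3% and 11.6% of 43 members with a promoter window against 0.307% and 0.0999% of 27025 genes.

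The levels that chose the members are given next as a description, without a test. All 139 had counts in both libraries with Chaf1a siRNA alone, and in all 139 both of those libraries exceeded every other library. Their summed level was 93.3 and 89.6 CPM with si309, 25.1 and 32.2 CPM with si308, 2692 and 2744 CPM with Chaf1a siRNA alone, and 17.6 and 15.9 CPM in the negative control. The mean with Chaf1a siRNA alone ran between 1.04 and 209 CPM with a median of 5.26 CPM, and 86 members lay at 1 to 10 CPM, 46 at 10 to 100 CPM and 7 above 100 CPM. The 2 libraries with Chaf1a siRNA alone differed by a median of 8.93% of their mean. In the negative control 59 members had no count in either library, with si308 53 had none, and with si309 4 had none.

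**Figure D2:**
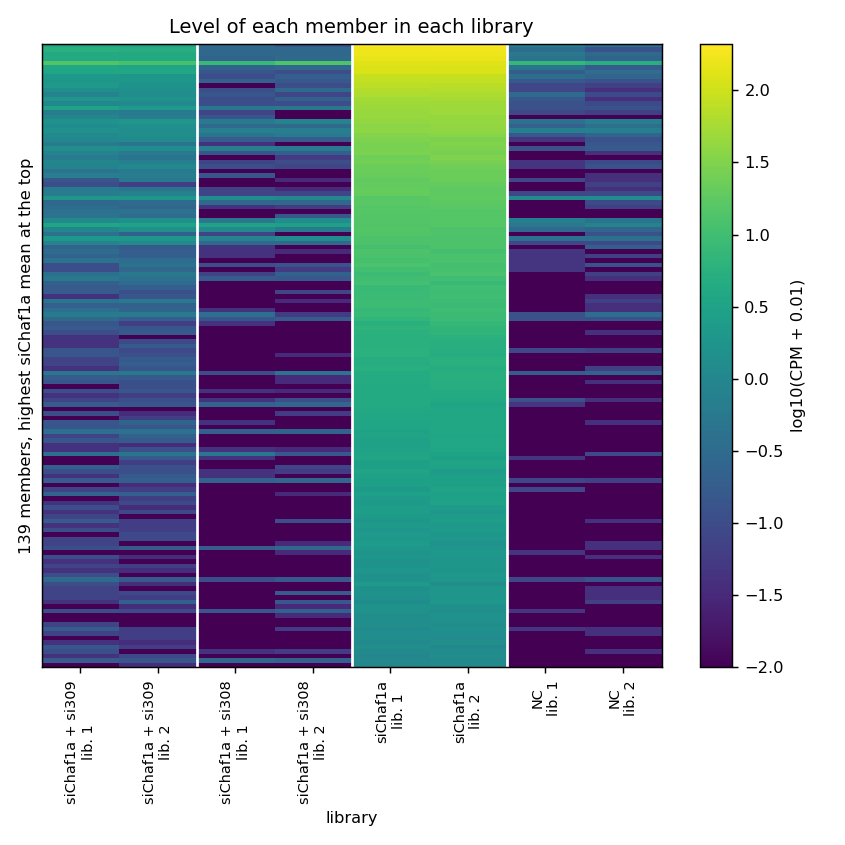
Level of each of the 139 members (rows, by mean with Chaf1a siRNA alone) in each of the 8 libraries (columns), as log10 of CPM plus 0.01. The 2 libraries with Chaf1a siRNA alone are the brightest in every row, the si309 libraries hold a low signal in 125 and 127 members, and the si308 and NC libraries have no count for many (65 and 74 members had counts with si308, 50 and 72 in NC).

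The CPM minimum cut through the most models: a minimum of 0.5 CPM took 176 and a minimum of 2 CPM 107. Just inside the CPM minimum lay Gm25208 and Gm10552, both at 1.0 CPM in the lower library, and just outside it Gm5941 and Gm18355, both at 0.972 CPM. Nearest the fold threshold were Gm12495 at 12.4 and Gm13228 at 14.0 inside, and Gm12790 at 6.94 and Gm26845 at 5.86 outside. Inside the limit on the share left stood 1600015I10Rik with 22.3% and Gm11545 with 20.3% for si308, and Gm11545 with 22.7% and Gm21960 with 14.9% for si309. Outside it, 1700003E24Rik with 30.9% was the only model that failed the si309 limit alone, none failed the si308 limit alone, and 26 failed both.

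The members with the most counts came from a few copied families. Gm21761, a neighbour and relative of the Tcstv genes named for the 2-cell stage, had 3.62 and 3.38 CPM with si309, 0.297 and 0.142 CPM with si308, 209.7 and 207.9 CPM with Chaf1a siRNA alone, and 0.716 and 0.418 CPM in the negative control. The Chaf1a siRNA mean was 368 times the negative control mean, the si308 libraries lay below both negative control libraries, and the si309 libraries lay above all 4. Gm5662, of a family on chromosome 12 that resembles BB287469, had 5.56 and 4.87 CPM with si309, 0.264 and 0.283 CPM with si308, 165 and 168 CPM with Chaf1a siRNA alone, and 0.322 and 0.112 CPM in the negative control. Gm12794, the PRAME family gene Pramel19 in RefSeq, had 1.91 and 1.96 CPM with si309, 0.198 and 0.142 CPM with si308, 82.9 and 84.1 CPM with Chaf1a siRNA alone, and 0.143 and 0.112 CPM in the negative control. Gm16026, annotated as a pseudogene and close in sequence to the chromatin reader gene Sp110 (97.6% identity over 2609 bases), had 2.11 and 1.68 CPM with si309, 0 and 0.0944 CPM with si308, 76.7 and 75.8 CPM with Chaf1a siRNA alone, and 0.0716 and 0.0558 CPM in the negative control. In each of these, both libraries with Chaf1a siRNA alone stood far above the other 6, which all lay under 6 CPM.

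The other members among the 12 highest were Gm2022, Gm8300, Gm10800, Gm8332, Gm2016, Gm5039, Gm12800 and Gm20767, with Chaf1a siRNA means of 62.2 to 165 CPM. All but Gm10800 kept 1.79% to 3.11% of that with si309 and 0.0950% to 0.297% with si308. Gm10800 kept 9.67% with si309 and 8.15% with si308, and it stood at 7.59 and 5.02 CPM already in the negative control. Divided by annotated exon length, the level with Chaf1a siRNA alone was 279 CPM per kb for Gm8332, 203 CPM per kb for Gm10800, 152 CPM per kb for Gm21761 and 19.0 CPM per kb for Gm16026, against a median of 5.26 CPM per kb over the 124 members with a length. Gm2022 has no entry in GENCODE M21 and no length here.

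The share of the Chaf1a siRNA level that was left differed between the pools. With si309 the members kept a median of 2.57% (quartiles 1.84% and 3.97%), and with si308 a median of 0.190% (quartiles 0 and 0.893%), against 0.151% in the negative control. Under 1% was left in 15 members with si309 and in 105 with si308, and over 10% was left in 8 and 4. The mean with si309 was above that with si308 in 129 of 139 members, below it in 8 and equal in 2, and both si309 libraries stood above both si308 libraries in 99. The si309 mean lay at or below the negative control mean in 4 members and the si308 mean in 78.

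**Figure D3:**
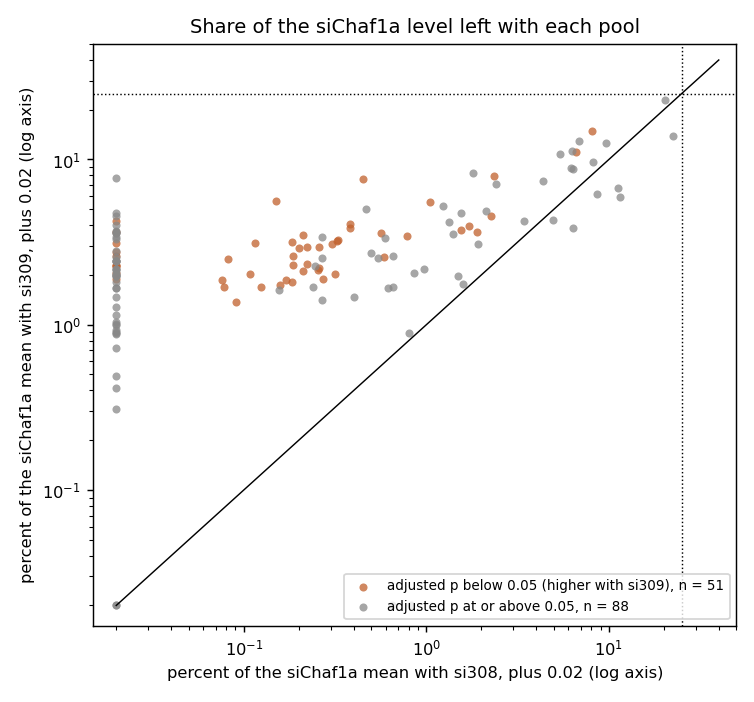
Percent of the Chaf1a siRNA mean left with si309 (vertical) against si308 (horizontal) for each of the 139 members, both on log axes after adding 0.02, with the line of equality and dotted lines at the 25% limit of the rule. Most points lie above the line, and the column at the left edge holds the 53 members with no si308 count; orange points are the 51 members called higher with si309.

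The difference between the pools was the 1 comparison that could be tested, because the rule set the same limit for both. Of all 17970 genes tested, 431 (2.4%) were higher and 230 (1.28%) lower with si309 than with si308 at an adjusted p under 0.05 (edgeR's quasi-likelihood F test, Benjamini-Hochberg adjustment over all genes). All 139 members were tested, and 51 were higher with si309 and 0 lower. The 53 members without a si308 count could not have been called lower. Members with near-identical transcripts may share reads, so the calls are not all independent. Most members passed the filter on low counts only through the libraries with Chaf1a siRNA alone: with the filter and the fit on the 4 pool libraries, 48 were tested, 33 were higher and 0 lower. At an unadjusted p under 0.05 the counts were 87 higher and 0 lower, and DESeq2 gave 42 higher and 0 lower. The members' fitted log2 difference had a median of 3.09, against -0.0031 over all genes tested. That median rests in part on members without si308 counts, whose fitted values depend on the prior count. With those set at their bound from 3 counts over both si308 libraries, and without the 25 members at 3 counts or fewer in both pools, the median was 3.36-fold over 114 members. By level, 10 of 86 at 1 to 10 CPM, 35 of 46 at 10 to 100 CPM and 6 of 7 above 100 CPM with Chaf1a siRNA alone were called. The median member of the lowest class had 6 counts over both si309 libraries and 0 over both si308 libraries. Among members with more than 3 si308 counts, the ratio of the si309 to the si308 mean also differed by class, with medians of 1.34 over 15 members, 4.53 over 31 and 15.9 over 7. Depth and the size of the difference thus moved together over the classes, and their parts in the calls were not tested. Without the second si309 library 31 members were called, and without 1 of the other libraries 36 to 58.

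Among the most counted members, the difference was far larger than the spread between the libraries. Gm2016 stood at 3.56 and 3.85 CPM with si309 and at 0.132 and 0.0944 CPM with si308, a log2 difference of 5.01 (SE 0.28, adjusted p = 1.13e-10, edgeR). For Gm16026 it was 4.98 (SE 0.42, adjusted p = 9.21e-08, edgeR), for Gm5662 4.20 (SE 0.23, adjusted p = 7.41e-11) and for Gm21761 4.04 (SE 0.26, adjusted p = 1.08e-09). Both si309 libraries lay above both si308 libraries in each of these. The transcripts of Gm2016 and Gm5662 were 99.3% identical over 1766 bases, so their values are not independent and depend on how reads were divided. Gm10800 was the exception above 100 CPM, with 14.1 and 11.8 CPM with si309 against 8.05 and 13.8 CPM with si308. Its log2 difference was 0.19 (SE 0.16, adjusted p = 0.641, edgeR), and the groups overlapped. Without the first si308 library it was -0.12 (adjusted p = 0.794, edgeR), and without the second 0.67 (adjusted p = 0.0198, edgeR).

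The 6 called members with the largest fitted change had no si308 count in either library, so each fold is a lower bound. Gm5286, Spopfm3 in RefSeq and a member of the TD and POZ domain family of chromosome 3, had 13 and 23 counts with si309 against 0 and 0 with si308, at least 12.5-fold higher with si309 (adjusted p = 0.000119, edgeR). Gm21319 of the chromosome 12 family had 12 and 15 counts with si309 against 0 and 0, at least 9.55-fold higher, and Gm4858, Tdpoz8 in RefSeq, had 12 and 13 counts against 0 and 0, at least 8.91-fold higher. The bounds were 6.20-fold for Gm7942, 4.93-fold for Gm7627, a pseudogene of the glycolytic gene Gapdh, and 4.22-fold for Gm7104. With si309 these had 6 and 12, 6 and 8, and 5 and 7 counts, too few for the filter when set on the 4 pool libraries. Gm7942, Gm7627 and Gm7104 thus entered the test only through the libraries with Chaf1a siRNA alone. None of the 6 had more than 1 count in the negative control. Leaving out 1 pool library took Gm7942, Gm7627 or Gm7104 to an adjusted p of 0.0654 to 0.124 (edgeR) in 8 of these fits.

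**Figure D4:**
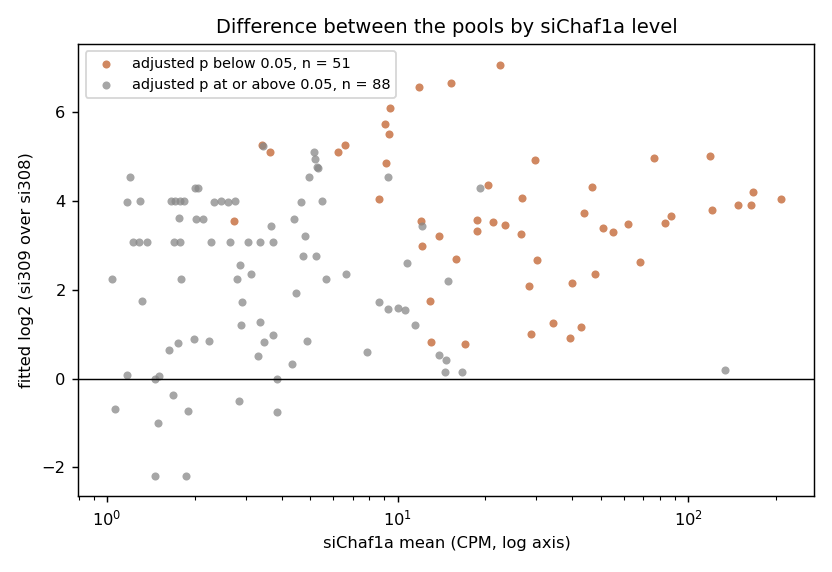
Fitted log2 difference between si309 and si308 (vertical) against the mean with Chaf1a siRNA alone (CPM, log axis) for each of the 139 members. The 51 orange points passed an adjusted p of 0.05 and all lie above 0, and 41 of them lie at 10 CPM or more.

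The named genes of the same cell state were taken as a list written by hand, which holds Zscan4, Usp17l, Tdpoz, Tcstv, Pramef, Obox and other genes known from 2-cell-like cells. Of the 49 genes listed and present, 45 were tested, 19 were higher with si309 and 0 lower (edgeR; 29 and 0 at an unadjusted p under 0.05, and 18 and 0 with DESeq2). The fitted log2 difference had a median of 3.08, which rests in part on genes without si308 counts and so on the prior count. Fitted on the 4 pool libraries alone, 31 were tested, 17 were higher and the median was 1.66. Zscan4d, a DNA-binding protein of telomere maintenance that marks 2-cell-like cells, had 5.89 and 5.76 CPM with si309, 0.165 and 0.283 CPM with si308, 263 and 280.0 CPM with Chaf1a siRNA alone, and 0.322 and 0.642 CPM in the negative control. Its log2 difference between the pools was 4.60 (SE 0.23, adjusted p = 1.95e-11, edgeR). Not all listed genes had this course: 11 of the 49 kept at least 50% of their Chaf1a siRNA level with both pools, and in 4 the mean with Chaf1a siRNA alone was below the negative control mean. Pramel6 kept 101% with si309 and 94.1% with si308, and Pramef8 72.8% and 66.5%. Obox6 averaged 1.99 CPM with Chaf1a siRNA alone against 3.27 CPM in the negative control, and Trim43c, Phf11d and Eif1a were the other 3 that were lower. Transcripts of MERVL-int, the internal part of the retrovirus that marks the state, reached 128 and 122 CPM (scaled to the gene totals) with si309, 78.3 and 72.6 with si308, 2675 and 2830 with Chaf1a siRNA alone, and 54.2 and 54.9 in the negative control.

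Among the 124 members with a position in GENCODE M21, the largest run on a chromosome held 12 models. It lay on chromosome 12, between 87514316 and 88324026 (GRCm38), with no gap above 500 kb. All but Gm7104 matched the transcript of BB287469 best among named genes. They fall into long models (Gm8300, Gm4027, Gm21319, Gm2016, Gm5662, Gm5039) and short models of 435 exon bases (Gm2035, Gm2075, Gm6803, Gm2056, Gm8332). Their means with Chaf1a siRNA alone ran between 1.99 CPM for Gm6803 and 167 CPM for Gm5662, and the shares left were 1.65% to 3.84% with si309 and 0 to 0.593% with si308. Gm4027 had 0.955 and 0.733 CPM with si309, 0.0660 and 0.0944 CPM with si308, 25.6 and 27.4 CPM with Chaf1a siRNA alone, and 0.0358 and 0.0837 CPM in the negative control. Gm6803, the lowest, had 2 and 0 counts with si309, 0 and 1 with si308, 83 and 40 with Chaf1a siRNA alone, and 0 and 1 in the negative control. Of the 12, all but Gm2075 and Gm6803 were called higher with si309. The RefSeq windows of 2 more members, Gm2046 and Gm21936, lie in the same interval. Neither has a GENCODE M21 entry, so they are not counted in the 12. Gm2046 was called higher with si309 (adjusted p = 0.00094, edgeR) and Gm21936 was not called (adjusted p = 0.300, edgeR). Transcripts of Gm5662 and Gm2016 were 99.3% identical over 1766 bases and those of Gm4027 and BB287469 99.8% over 1850 bases, so the division of counts among these models is uncertain.

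Some of the other runs, also formed only from members with a GENCODE M21 position, lay beside named genes of the same state. On chromosome 7, 10 members stood among the Obox homeobox genes, 7 stood around the Sp110 locus of chromosome 1, and 6 in the PRAME family cluster of chromosome 4 (143615003 to 144364419). Another 5 lay beside Tcstv1 and Tcstv3 on chromosome 13, 5 among the Tdpoz genes of chromosome 3 and 4 beside Tmem92 on chromosome 11. No listed gene lay within 500 kb of the run on chromosome 12, nor of those on chromosomes 5 and 9. The same held for the runs on chromosome 4 that start at 73401032 and 101403081. A gene of the named list lay within 500 kb of 36 of 124 members (29.0%), against 36 of 2659 other unnamed models tested (1.35%). The list, written by hand, names the families of several of these runs, so the 36 are not independent of it or of each other. Another member lay within 100 kb of 55 members (44.4%), and 44.2% of the other unnamed models had one of their own set that near. The shares were 41.1% and 33.1% within 50 kb, and 59.7% and 77.4% within 500 kb. The sets differ in size, so that equal shares are not what an even spread would give. By chromosome, 21 of the 124 lay on chromosome 4, 15 on 7, 13 on 12 and 11 on 1.

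Grouped by transcript sequence, 69 of the 124 members fell into 16 families in which a match of at least 70% identity covered at least 50% of both longest transcripts. In all but the Gm10800 and Gm11544 families, every member kept at most 1.54% with si308. The 5 relatives of Alyref (Gm4340, Gm6763, Gm6489, Gm8711 and Gm4302, on chromosomes 1 and 10) kept 0 to 2.50% with si309 and 0 to 0.806% with si308. The 6 relatives of the Tdpoz genes, which encode proteins with TRAF-like and BTB domains, kept 1.84% to 3.12% with si309 and 0 to 0.0880% with si308. The 6 models of chromosome 4 (73401032 to 73920760) that resemble BC049762 kept 0.393% to 2.39% with si309 and 0 to 0.381% with si308. The highest of them, Gm11487, had 0.0988 and 0.0524 CPM with si309, 0 and 0 CPM with si308, 19.5 and 18.9 CPM with Chaf1a siRNA alone, and 0 and 0.0558 CPM in the negative control.

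The members built of tandem repeats showed no common order of the pools. Gm10800 on chromosome 2 and Gm26870, Gm10722, Gm11168 and Gm10718, which lie together on chromosome 9 (3000282 to 3038313), hold tandem repeats: shifted by 225 to 237 bases, 56.3% to 81.5% of their transcript bases matched themselves, against at most 36.2% at the best shift in the other members with a transcript long enough to measure. The repeat unit of mouse major satellite DNA is about as long, and it is listed in the authors' repeat table as GSAT_MM. Gm10722 had 0.0988 and 0.157 CPM with si309, 0.165 and 0.260 CPM with si308, 2.00 and 1.80 CPM with Chaf1a siRNA alone, and 0 and 0.0279 CPM in the negative control. Gm26870 had 1.12 and 1.47 CPM with si309, 0.528 and 1.30 CPM with si308, 14.4 and 15.0 CPM with Chaf1a siRNA alone, and 0.716 and 0.474 CPM in the negative control. Over the 5, the share left was 4.21% to 9.67% with si309 and 3.41% to 11.5% with si308, and none passed the test of the pool difference (adjusted p of 0.548 to 0.991, edgeR). GSAT_MM itself had 24 and 29 counts with si309, 27 and 56 with si308, 378 and 235 with Chaf1a siRNA alone, and 7 and 10 in the negative control. Exons of Gm26870 overlap those of Gm10718 and Gm11168 on the other strand, and how strand was treated in counting is not given in the sources used here.

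**Figure D5:**
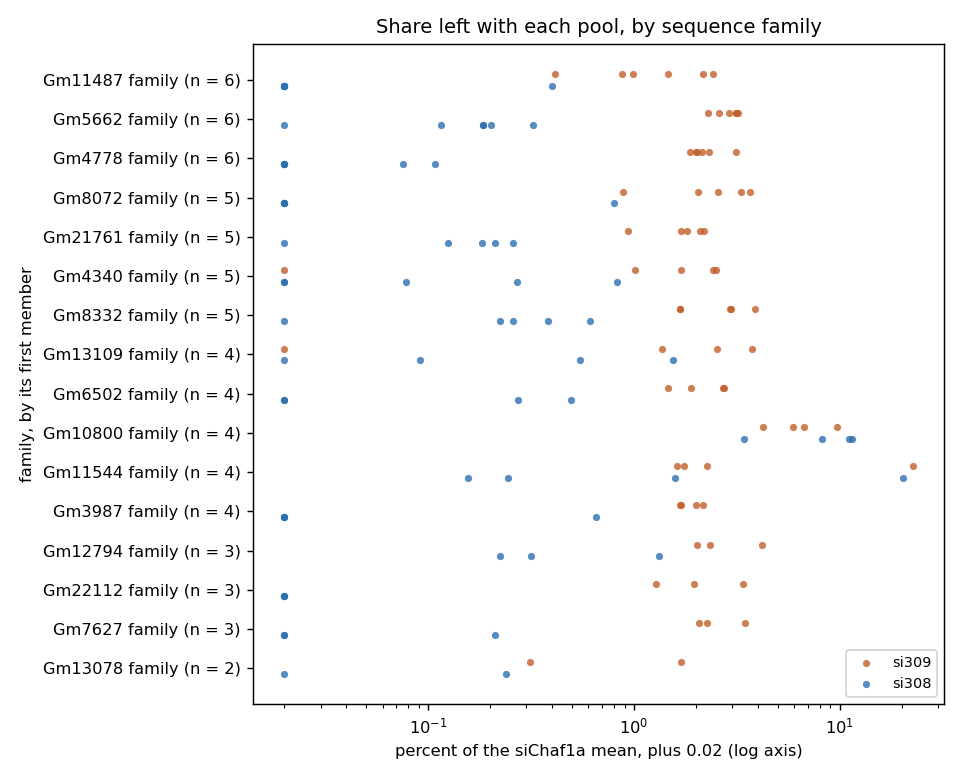
Percent of the Chaf1a siRNA mean left with si309 (orange) and si308 (blue) for each member of the 16 sequence families, on a log axis after adding 0.02. The Gm10800 family lies at 3.41% to 11.5% with si308, to the right of the others apart from Gm11545 at 20.3% in the Gm11544 family.

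A few single members kept much of their level. Gm11545, an unprocessed pseudogene related to Tmem92, had 3.52 and 3.09 CPM with si309, 3.07 and 2.83 CPM with si308, 13.8 and 15.2 CPM with Chaf1a siRNA alone, and 0.501 and 0.837 CPM in the negative control. Its relative Gm11544, less than 100 kb away, had 0.263 and 0.314 CPM with si309, 0.264 and 0.260 CPM with si308, 16.4 and 16.9 CPM with Chaf1a siRNA alone, and 0 and 0.0837 CPM in the negative control. The pair thus had similar levels with Chaf1a siRNA alone, and with the pools Gm11545 kept 22.7% and 20.3% where Gm11544 kept 1.73% and 1.57%. 1600015I10Rik, Doxl1 in RefSeq, had 5 and 5 counts with si309, 8 and 9 with si308, 36 and 28 with Chaf1a siRNA alone, and 0 and 0 in the negative control. Its log2 difference between the pools was -0.68 (SE 0.60, adjusted p = 0.648, edgeR).

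As annotated, 59 of the 124 members were protein coding (47.6%), 38 pseudogenes (30.6%) and 24 long non-coding (19.4%), against 27.6%, 30.4% and 37.5% of the 2659 other unnamed models tested. A single exon was annotated in 21.8% of members and in 35.4% of the others, and the median exon length was 1322 and 1380 bases. RefSeq matched 101 of the 139 members, and for 27 of these it gives another name, among them Pramel, Spopfm, Tdpoz, Obox and Eif4a3l genes. A transcript of another gene was at least 97% identical over at least 100 bases for 72 of 124 members, and for 47 this was another member. Such a stretch may be a small part of the transcript. In Gm12114, which opens with the leader, the best match to a named gene covered 17.2% of the transcript. Reads from such stretches may be assigned to any gene that holds them. How the authors' counting treated them is not given in the sources used here. Exons overlapped another gene on the same strand in 3 members and on the opposite strand in 9.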

How the data were processed

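Whole-number read counts per gene were deposited by the authors as 1 table of raw counts with 8 libraries. Novoalign 2.8, the mm10 build and DESeq2 are named in the submitters' processing notes; how reads were counted and the annotation are not given in the sources used here. The deposited counts of repeats were used only for MERVL-int and GSAT_MM. The series text calls the 2 libraries per group biological replicates. CPM values are counts scaled to the column total.

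Pool differences (si309 minus si308) were tested on counts with edgeR 4.0.16 (quasi-likelihood F test, TMM scaling, low counts removed by filterByExpr, 4 groups in 1 fit), with DESeq2 1.42.0 as an alternative. On drawn counts for this comparison, 200 of 200 genes changed 4-fold were recovered, and 11 unchanged genes were called. The changed genes were taken only from genes with higher mean counts in the pool libraries than most members have. Every gene was drawn with the same spread between libraries. The recovery therefore does not cover members with few counts. The other contrasts chose the members and got no test. Bounds use 3 counts over the group and cover counting error only, as do the 95% intervals. Transcripts came from GENCODE M21 (GRCm38) and promoter windows from RefSeq, and were compared with BLAST 2.17.0.

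Members and gene lists were chosen with earlier results of these data known. Members named are the 12 highest with Chaf1a siRNA alone, the 6 called with the largest fitted change, the nearest to each threshold and the largest run on a chromosome. Others, named for a shared sequence, a place in a run, a family or a share that stood apart, were chosen after their values were seen.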

Additional observations from a re-analysis of the deposited data

How the results depend on the processing

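No member was called lower with si309 under any alternative, though the si309 mean was below the si308 mean in 8 members. A lower call was out of reach for the 53 members without a si308 count, and few counts made it hard for many others. Higher with si309 were 51 members, 33 when only the 4 pool libraries were fitted (48 members tested), 31 to 58 when 1 library was left out (31 without the second si309 library), and 42 to 63 under the others. With a replicate block the count was 46. Over all genes tested, same-numbered libraries did not deviate together (correlations -0.042 to 0.042), which does not exclude a shared batch in some genes. The members' median log2 difference was 2.96 to 3.20 when 1 library was left out. Over all genes, 165 to 572 were higher and 46 to 332 lower with 1 library left out, and 622 were higher and 373 lower with no filter on low counts. Gm10800 had a log2 difference of -0.12 without the first si308 library and 0.67 without the second. Gm6803 had -2.19 without the first si309 library and 3.03 without the second si308 library, on 0 to 2 counts a pool library. The cause was not tested. Of 363 values of named members, 352 kept direction and call, 8 lost the call (Gm7942, Gm7627 and Gm7104, with 1 library left out), 1 gained it and 2 reversed. A transcript of another gene matched over at least 100 bases for 72 members at 97% identity, 45 at 99% and 86 at 95%. The rule took 129 to 146 models under other scalings, folds, shares and left-out libraries, 176 with a minimum of 0.5 CPM and 107 with 2 CPM. The median member had 10 counts over both si309 libraries and 1 over both si308 libraries.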

Other observations

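The leader printed for Gm12114 also occurs in named genes, which the choice of members did not cover. Of 14976 named genes tested, 43 held it, and 8 of the 43 (18.6%) met the same level limits as the members, against 122 of all 14976 (0.815%). These 8 were Ankrd22, Abcb5, Ubtfl1, AU019990, Ccser1, Naalad2, Ctf2 and Pramel5, named here after their values were seen. Only Ubtfl1 is in the list of 2-cell genes. Abcb5, a transporter of the ATP-binding cassette family, averaged 0.814 ± 0.152 CPM with si309, 0.0613 ± 0.0533 CPM with si308, 26.6 ± 2.69 CPM with Chaf1a siRNA alone, and 0.0279 ± 0.0395 CPM in the negative control (SD, n = 2 each). Ankrd22, an ankyrin repeat gene, averaged 0.367 ± 0.147 CPM with si309, 0.0448 ± 0.0300 CPM with si308, 9.49 ± 0.874 CPM with Chaf1a siRNA alone, and had no count in the negative control. Naalad2, a peptidase gene, stood at 1.48 CPM with si309, 1.32 CPM with si308, 13.8 CPM with Chaf1a siRNA alone and 1.68 CPM in the negative control, so its level over the negative control was the lowest of the 8 in proportion.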
